A study of Mus musculus with 4 samples.

Results

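The genes described here are 40 genes that respond to, transmit or sense type I interferon, taken by symbol from a named list out of 24062 genes in the deposited count table. All 40 have a row, and 39 of them were among the 11271 genes with enough reads to be tested. By role they are 24 antiviral effectors, 4 nucleic acid sensors, 6 regulators and 6 factors and receptors. They were measured by RNA sequencing in gBT-I cells, CD8+ T cells with a transgenic receptor for a herpes simplex virus glycoprotein B peptide. The donors were SPF (specific pathogen free) gBT-I transgenic mice, so the transferred cells of both groups started from animals with a microbiota. Per the labels, donor splenocytes were stimulated in culture with the gB peptide and LPS, a bacterial product that itself induces interferon in other cells, and received IL-1 on days 2 and 3. On day 4 they were injected into C57BL/6 recipients that were either SPF or germ free (GF, without a microbiota), and gBT-I cells were sorted from the recipient spleens 7 days after transfer. There are 2 libraries from SPF and 2 from GF recipients. The labels give no age or sex of the mice and do not say whether replicates were separate mice, so a p-value here reflects the spread of these 4 libraries alone, which may be technical. In such bulk RNA, fewer cells with a transcript and less transcript per cell cannot be told apart.

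Type I interferons are secreted proteins that bind a receptor made of the IFNAR1 and IFNAR2 chains. The kinases JAK1 and TYK2 on these chains then activate STAT2, which joins IRF9 in a complex that binds a short DNA element, the interferon-stimulated response element (ISRE), before the genes it switches on. Those genes encode proteins that block virus entry, replication or translation, sensors that detect viral RNA or DNA, and regulators that damp or extend the response. In CD8+ T cells the pathway is known to shape expansion and effector function, and a low, steady level of interferon signalling is known from the tissues of uninfected mice.

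The response element was searched as GAAANNGAAA on either strand, overlapping matches included, in the 250 bases before each gene start of the RefSeq table for GRCm38.p6, the assembly of mm10. Of the 40 genes, 31 had a start in that table, and 9 of these (29.0%) held a match, against 3.19% of 8493 other tested genes and 3.46% of all 27025 genes in the table. The 9 genes are Isg15, Ifit1, Ifit3, Oas1a, Oas3, Bst2, Rsad2, Trim30a and Stat2. The windows of the 6 with the smallest unadjusted p are shown because the element is what a shared response to interferon acts through. They run 5′ to 3′ toward the gene start, end before the transcribed part, and carry the matched bases in capitals. A match is a description of the sequence, and the absence of one says only that these letters are not in this window.
Isg15, chr4:156200825-156200934, minus strand: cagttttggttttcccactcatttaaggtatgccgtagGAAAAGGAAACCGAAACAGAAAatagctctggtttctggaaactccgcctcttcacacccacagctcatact
Ifit1, chr19:34640754-34640863, plus strand: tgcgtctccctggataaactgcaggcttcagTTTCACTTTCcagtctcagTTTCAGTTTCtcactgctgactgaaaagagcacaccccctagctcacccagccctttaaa
Bst2, chr8:71537537-71537646, minus strand: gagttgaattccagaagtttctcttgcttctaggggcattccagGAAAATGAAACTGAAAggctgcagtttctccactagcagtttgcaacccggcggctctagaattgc
Oas1a, chr5:120907526-120907589, minus strand: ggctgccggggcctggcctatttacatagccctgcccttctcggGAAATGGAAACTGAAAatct
Trim30a, chr7:104465194-104465279, minus strand: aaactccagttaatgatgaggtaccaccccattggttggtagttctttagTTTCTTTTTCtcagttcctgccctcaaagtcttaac
Stat2, chr10:128270248-128270335, plus strand: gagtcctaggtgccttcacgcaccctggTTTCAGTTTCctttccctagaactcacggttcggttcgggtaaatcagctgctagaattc
Isg15 carried 3 overlapping matches in 1 run, Bst2 and Oas1a carried 2 overlapping matches each, and Ifit1 carried 2 separate ones. Those of Ifit1, Trim30a and Stat2 lie on the opposite strand and so read TTTC here. The match nearest to the start ended 56 bases before it in Isg15, 75 in Ifit1, 114 in Bst2, 4 in Oas1a, 26 in Trim30a and 212 in Stat2. A second motif, TTCNNNGAA, the core of the element bound by STAT dimers, was found before 7 of the 31 genes (22.6%), against 7.39% of other tested genes. Those 7 were Irf1, Isg20, Samhd1, Oas1a, Bst2, Ifnar2 and Eif2ak2.

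Total counts ranged from 11544960 to 14431533 per library, and a count of 0 allows up to 3 counts, or 0.20 to 0.26 CPM (read counts scaled to library size), which covers counting error only. The CD8 T cell markers Cd8a and Cd8b1 measured 790 to 991 and 662 to 1143 CPM. Of the listed CD4 T cell markers, Cd4 was at most 0.52 CPM and Foxp3 at most 1.22 CPM. Cd40lg, also on that list, measured 30.2 and 28.7 CPM in SPF and 14.6 and 21.6 CPM in GF. Its log2 fold change was -0.70 (SE 0.28), and it was not called. Some libraries of different recipients were closer to each other than replicates were. The chi-square of counts per degree of freedom was 19.4 between the libraries numbered 2 and 31.2 between SPF replicate 2 and GF replicate 1. It was 46.6 within GF, 59.7 between the libraries numbered 1 and 94.3 within SPF. The largest value, 153, was between SPF replicate 1 and GF replicate 2. B cell markers (10 of 12 listed genes in the table) summed to 85.7 and 25.9 CPM in SPF replicates 1 and 2 and to 104 and 29.7 CPM in GF replicates 1 and 2, so they followed the number. Markers of plasmacytoid dendritic cells, the main interferon producers, summed to 9.4 to 13.8 CPM without the member Bst2, and their defining gene Siglech was at 0 in both libraries numbered 2 and at most 0.27 CPM in the others. Markers of NK cells (8 listed) summed to 91.0 and 67.4 CPM in SPF and to 55.5 and 47.5 CPM in GF, the same direction as most members. All 4 tested NK markers (Klrb1c, Eomes, Fcer1g and Tyrobp) were lower in each GF library than in either SPF library, as were 16.4% of all tested genes. Of these markers 0 were called, with log2 fold changes of -0.51, -0.60, -1.29 and -0.75. Of the defining NK receptor genes, Klra8 and Klra4 were at 0 in all libraries and Ncr1 was at most 0.26 CPM. The part of NK markers in the members' values was not tested.

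No interferon response gene passed the edgeR quasi-likelihood test of GF against SPF after Benjamini-Hochberg adjustment, with 0 of 39 higher and 0 lower. The same held for all 11271 tested genes (0.0% called in each direction), and the smallest adjusted p was 0.86 for the members as for all genes. At an unadjusted p under 0.05 there was 1 member higher, Mx1, and 0 lower, where 2.17% of all tested genes were higher and 1.05% lower. Of the 39 members, 26 had lower fitted values in GF and 13 higher, with a median log2 fold change of -0.10. Over all tested genes 50.3% were lower and the median was -0.00. With 1 library left out, 21 (without SPF replicate 1) to 27 members had lower fitted values. In 11 members (28.2%) the groups did not overlap and GF was the lower one, as in 16.4% of all tested genes, and in 5 (12.8%) GF was the higher one, as in 16.8% of all tested genes. With 2 libraries a group, an exact two-sided permutation test of one gene cannot give a p under 0.33. DESeq2 and the edgeR exact test also called 0 members, where each called 0.071% of tested genes higher and 0.00887% lower, and limma-voom called no gene. Without SPF replicate 1, 0 members were called, where 0.129% of tested genes were called higher and 0.0173% lower. Without SPF replicate 2, 1 member was called higher (Stat2) and 4 lower (Isg15, Ifit1, Bst2 and Rtp4), where 6.77% of tested genes were called higher and 4.7% lower; that fit takes the lone SPF library to vary like the GF libraries.

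**Figure D1:**
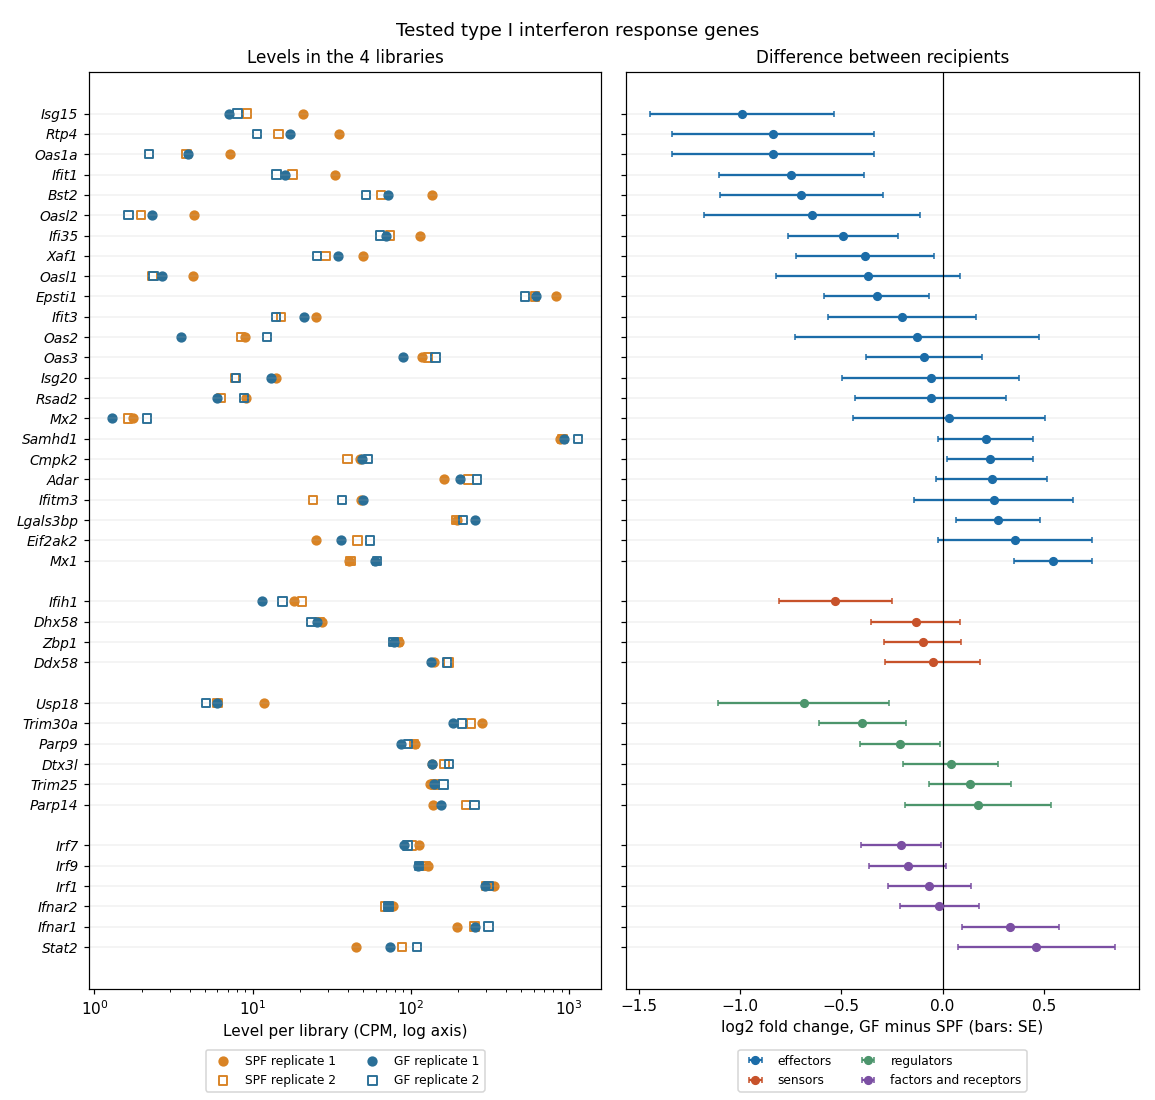
The left panel plots each tested gene's level in the 4 libraries (CPM, log axis) and the right panel its log2 fold change, GF minus SPF, with bars of 1 standard error, grouped by role. SPF replicate 1 is the highest library for most genes at the top of the effector group, while both GF libraries of Mx1 lie above both SPF libraries.

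Of the 23 tested effectors, 15 had lower and 8 higher fitted values in GF, with log2 fold changes from -0.99 for Isg15 to 0.55 for Mx1 and a median of -0.13. Isg15, a ubiquitin-like protein that is attached to other proteins during the response (chromosome 4, 156199424 to 156200818, minus strand, 2 merged exons), measured 21 and 9.18 CPM in SPF replicates 1 and 2 and 7.10 and 8.02 CPM in GF replicates 1 and 2. Both GF libraries were lower than both SPF libraries, but SPF replicate 2 was closer to the GF libraries than to SPF replicate 1. The log2 fold change was -0.99 (SE 0.45, edgeR quasi-likelihood adjusted p = 0.86). It was -0.28 without SPF replicate 1 and -1.48 without SPF replicate 2.

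Ifit1, which binds viral RNA that lacks the host's cap methylation (chromosome 19, 34640871 to 34650009, plus strand), measured 33.0 and 17.9 CPM in SPF and 16.1 and 14.2 CPM in GF. As for Isg15, SPF replicate 1 was alone at the top and both GF libraries were lower than both SPF libraries. Ifit1 had a log2 fold change of -0.75 (SE 0.36, adjusted p = 0.86 by edgeR). Ifit1 had -0.24 without SPF replicate 1 and -1.13 without SPF replicate 2. Its relative Ifit3 on the same chromosome, which binds other IFIT proteins, measured 25.2 and 15.2 CPM in SPF and 21 and 14.1 CPM in GF, so that each library numbered 1 lay above each numbered 2. IFIT genes have close relatives, among which reads may be shared or lost in counting. Ifi35, a protein of the interferon response that pairs with NMI, measured 114 and 74.3 CPM in SPF and 69.7 and 64.2 CPM in GF, a log2 fold change of -0.49 (SE 0.27, adjusted p = 0.86 by edgeR) that was -0.15 without SPF replicate 1. Of its exonic bases 16.8% lie in an exon of an antisense gene, and the library kit does not mark strand. Among other members, Adar shares 16.8% of its exonic bases with an antisense gene. Rtp4 shares 13.9% and Ifnar2 9.46% with a gene on the same strand.

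Mx1 had the opposite order. This GTPase blocks the replication of influenza and related viruses (chromosome 16, 97447035 to 97462907, minus strand), although many laboratory strains, C57BL/6 among them, are known to carry an allele without a functional protein. It measured 40.5 and 41.7 CPM in SPF and 59.1 and 61.0 CPM in GF, with replicates of each group closer to each other than to any library of the other group. The log2 fold change of 0.55 (SE 0.19) had an unadjusted p of 0.035 and an adjusted p of 0.86 in the edgeR quasi-likelihood test. With 1 library left out it ranged from 0.52 to 0.57. The related gene Mx2, annotated as a polymorphic pseudogene in GENCODE M21, measured 1.62 to 1.75 CPM in SPF and 1.3 to 2.15 CPM in GF, with the SPF libraries inside the range of the GF libraries.

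Among the other effectors, 3 also had higher values in each GF library than in either SPF library. Samhd1, which hydrolyses the nucleotides that retroviruses need for DNA synthesis, measured 879 and 914 CPM in SPF and 938 and 1142 CPM in GF. Lgals3bp, a secreted glycoprotein that binds galectins, measured 195 and 194 CPM in SPF and 256 and 215 CPM in GF. Cmpk2, a mitochondrial nucleotide kinase, measured 47.9 and 39.8 CPM in SPF and 49.4 and 53.7 CPM in GF, with GF replicate 1 only just above SPF replicate 1. Their log2 fold changes were 0.21 (SE 0.23), 0.27 (SE 0.21) and 0.23 (SE 0.21), and none passed the edgeR test. With 1 library left out they ranged from 0.061 to 0.35 for Samhd1 (lowest without GF replicate 2), from 0.14 to 0.39 for Lgals3bp (lowest without GF replicate 1) and from 0.10 to 0.37 for Cmpk2 (lowest without SPF replicate 2). Rsad2 (viperin), which makes a chain-terminating nucleotide and lies beside Cmpk2 on chromosome 12, did not share its order, at 9.08 and 6.29 CPM in SPF and 5.94 and 8.80 CPM in GF.

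Bst2 (tetherin) and Rtp4 were highest in SPF replicate 1, as was Isg15, but with overlapping groups. In both genes each library numbered 1 lay above each numbered 2, which was not so for Isg15. Bst2, which holds budding virions at the cell surface, measured 136 and 65.1 CPM in SPF and 71.8 and 52.1 CPM in GF, so that SPF replicate 1 stood apart and GF replicate 1 lay above SPF replicate 2. Rtp4, a chaperone of receptors that also restricts flaviviruses, measured 35.2 and 14.6 CPM in SPF and 17.1 and 10.7 CPM in GF. The log2 fold changes of both depended on which SPF library was kept. They were -0.70 (SE 0.40) and -0.84 (SE 0.50) with all libraries, and -0.07 and -0.07 without SPF replicate 1. Without SPF replicate 2 they were -1.14 and -1.35. Within replicate numbers 1 and 2, GF minus SPF was -0.92 and -0.32 for Bst2 and -1.02 and -0.44 for Rtp4 on log2 of CPM plus 0.5. Epsti1, an interferon-induced gene first found in epithelial and stromal cells, measured 832 and 614 CPM in SPF and 624 and 531 CPM in GF (log2 fold change -0.32, SE 0.26), and was likewise highest in SPF replicate 1, without which the log2 fold change was -0.087. So was Xaf1, a promoter of apoptosis, at 49.9 CPM against 25.6 to 34.8 CPM in the other libraries.

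The OAS family includes enzymes that make the second messenger that activates RNase L, and OAS-like proteins that bear ubiquitin-like domains. Oas3 measured 119 and 129 CPM in SPF and 89.0 and 143 CPM in GF. Oas2 had 8.91 and 8.48 CPM in SPF and 3.55 and 12.4 CPM in GF, and thus differed more between the GF libraries than between any GF and any SPF library. Its log2 fold change of -0.13 (SE 0.60) was 0.51 without GF replicate 1 and -1.29 without GF replicate 2. Oas1a, Oasl1 and Oasl2 were low, at 1.65 to 7.16 CPM, and each was highest in SPF replicate 1, with log2 fold changes of -0.84 (SE 0.50), -0.37 (SE 0.45) and -0.65 (SE 0.53). With 1 library left out, that of Oas1a ranged from -1.30 (without GF replicate 1) to -0.32 (without SPF replicate 1), and without SPF replicate 1 those of Oasl1 and Oasl2 turned to 0.11 and 0.0068. Oas1a has near-identical relatives in its cluster, so its reads may be split among them.

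The 4 remaining tested effectors had overlapping groups. Eif2ak2 (PKR), the kinase that halts translation on double-stranded RNA, measured 25.2 and 46.1 CPM in SPF and 36.1 and 55.5 CPM in GF, and Adar, which edits double-stranded RNA, measured 162 and 232 CPM in SPF and 205 and 262 CPM in GF. Both were higher in the libraries numbered 2 and, within a number, higher in GF. Ifitm3, which blocks virus entry at endosomes, measured 48.8 and 24.1 CPM in SPF and 50.1 and 36.6 CPM in GF, and the exonuclease gene Isg20 14.2 and 7.77 CPM in SPF and 13.1 and 7.87 CPM in GF, both higher in the libraries numbered 1. Ifi44 had 0 and 1 reads in SPF and 2 and 1 in GF, at or under the detection limit in each library, and was not tested.

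All 4 sensors had lower fitted values in GF, with log2 fold changes from -0.53 to -0.05. Ifih1 (MDA5), the sensor of long double-stranded RNA (chromosome 2, 62595798 to 62646255, minus strand), measured 18.2 and 20.6 CPM in SPF and 11.4 and 15.5 CPM in GF, a log2 fold change of -0.53 (SE 0.28, adjusted p = 0.86 by edgeR). Unlike Isg15, Ifit1, Bst2 and Rtp4 it was not highest in SPF replicate 1, and with 1 library left out its log2 fold change ranged from -0.77 to -0.33. Ddx58 (RIG-I), the sensor of RNA with a triphosphate end, measured 141 and 174 CPM in SPF and 134 and 169.9 CPM in GF, with overlapping groups and a log2 fold change of -0.05 (SE 0.24). Dhx58 (LGP2), which lacks their signalling domains and tunes them, measured 27.5 and 26.5 CPM in SPF and 25.6 and 23.6 CPM in GF. Zbp1, the sensor of left-handed nucleic acid, measured 84.6 and 83.2 CPM in SPF and 78.9 and 77.9 CPM in GF. Neither Dhx58 nor Zbp1 had overlapping groups, with GF lower, yet their log2 fold changes of -0.13 (SE 0.22) and -0.10 (SE 0.19) were smaller than their standard errors.

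The 6 regulators were divided, 3 with lower and 3 with higher fitted values in GF. Usp18, the protease that removes ISG15 from proteins and also blocks IFNAR2 signalling, measured 11.8 and 6.01 CPM in SPF and 5.94 and 5.08 CPM in GF, a log2 fold change of -0.69 (SE 0.42) that was -0.12 without SPF replicate 1. SPF replicate 2 and GF replicate 1 were nearly level. Trim30a, a TRIM protein that damps inflammatory signalling, measured 282 and 242 CPM in SPF and 186 and 212 CPM in GF, with all GF values below all SPF values and a log2 fold change of -0.40 (SE 0.21, adjusted p = 0.86 by edgeR). It lies in a cluster of close relatives on chromosome 7, so its reads are uncertain in the same way as those of Oas1a.

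Parp9 and Dtx3l encode partners that act as 1 ubiquitin ligase complex, and their genes lie head to head on chromosome 16. Parp9 measured 107 and 105 CPM in SPF and 86.5 and 96.6 CPM in GF, with a log2 fold change of -0.21 (SE 0.20). Dtx3l measured 137 and 164 CPM in SPF and 135 and 175 CPM in GF, with a log2 fold change of 0.04 (SE 0.23). The genes share 458 exonic bases on opposite strands, 9.40% of the bases of Parp9 and 8.0% of those of Dtx3l, where reads cannot be told apart. The related Parp14, an ADP-ribosyltransferase, measured 139 and 223 CPM in SPF and 155 and 254 CPM in GF, and Trim25, the ligase that activates RIG-I, measured 132 and 142 CPM in SPF and 139.6 and 162 CPM in GF, with overlapping groups for both.

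The receptor chains and the factors that drive the response were detected in all libraries, lowest for Stat2 in SPF replicate 1 at 45.2 CPM. Ifnar1 (chromosome 16, 91485238 to 91507441, plus strand) measured 197 and 253 CPM in SPF and 256 and 311 CPM in GF, a log2 fold change of 0.34 (SE 0.24, adjusted p = 0.86 by edgeR). The groups did not overlap, though GF replicate 1 exceeded SPF replicate 2 by little, and with 1 library left out the log2 fold change ranged from 0.17 (without SPF replicate 1) to 0.52 (without SPF replicate 2). Ifnar2, in the same receptor gene cluster, measured 77.0 and 69.0 CPM in SPF and 72.2 and 72.3 CPM in GF, with the GF libraries between the SPF libraries and a log2 fold change of -0.02 (SE 0.20).

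Stat2 and Irf9, partners in the complex that binds the response element, had fitted differences of opposite sign. Stat2 measured 45.2 and 88.0 CPM in SPF and 74.5 and 109 CPM in GF, lowest in SPF replicate 1, with overlapping groups and a log2 fold change of 0.46 (SE 0.39). It was 0.06 without SPF replicate 1 and 1.02 without SPF replicate 2. Irf9 measured 129 and 124 CPM in SPF and 111 and 113 CPM in GF, with all GF values below all SPF values and a log2 fold change of -0.17 (SE 0.19). Irf7, the factor that amplifies interferon production, measured 113 and 101 CPM in SPF and 90.4 and 95.7 CPM in GF in the same order, with a log2 fold change of -0.20 (SE 0.20). Irf1, which responds to interferon-γ more than to type I interferon, measured 335 and 299 CPM in SPF and 295 and 311 CPM in GF, with overlapping groups and a log2 fold change of -0.07 (SE 0.21).

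By role, the median log2 fold change was -0.13 for effectors, -0.12 for sensors, -0.08 for regulators and -0.04 for factors and receptors, all within the standard error of any single member. GF lay below SPF without overlap in 3 of 23 tested effectors (13.0%, against 16.4% of all tested genes) and in 8 of the 16 other members. It lay above SPF without overlap in 4 effectors (17.4%, against 16.8% of all tested genes) and 1 other member. These roles hold few genes, and a difference between them was not tested.

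The differences were also read within each replicate number, on log2 of CPM plus 0.5. Between the libraries numbered 1, 28 of 39 members were lower in GF, with a median of -0.26, and between those numbered 2, 19 were, with a median of 0.02. Over all tested genes the medians were 0.00 and -0.00. In both numbers 19 members were lower in GF (48.7%, against 37.4% of all tested genes) and 11 higher (28.2%, against 37.3%). All 4 sensors and 10 of the 23 effectors were among the 19. Isg15 differed by -1.50 between the libraries numbered 1 and by -0.19 between those numbered 2, and Ifit1 by -1.01 and -0.32. Mx1 differed by 0.54 and 0.55.

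**Figure D2:**
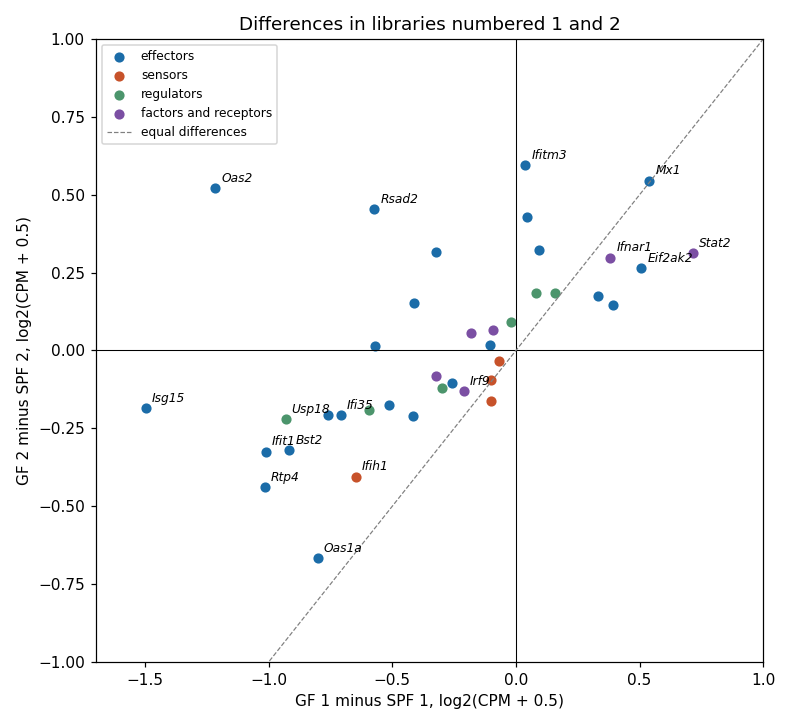
Each point is a tested gene, with the difference of GF replicate 1 minus SPF replicate 1 on the horizontal axis and of GF replicate 2 minus SPF replicate 2 on the vertical axis, both on log2(CPM + 0.5), colored by role. Mx1 lies on the dashed line of equal differences at 0.54 and 0.55, whereas Isg15 lies at -1.50 and -0.19.

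SPF replicate 1 was the library with the highest level for 22 of the 39 members (56.4%, against 38.3% of all tested genes), among them 13 of 23 effectors. It had the highest level for 15 of the 19 members with exons shorter in sum than the median member (78.9%) and for 7 of the 20 others (35.0%). Differences between replicates followed the exonic length of the members in both groups. Spearman's rho with length across the 39 members, which share libraries and are not replicates, was 0.77 for the replicates of SPF (2 minus 1), 0.72 for those of GF and 0.43 for the difference between the groups. Across 11188 tested genes it was 0.52, 0.47 and 0.36. Members shorter than the median differed by a median of -0.20 and the others by -0.05 on the log2 scale. With a trend on length removed from each library, 24 of 39 members were lower in GF with a median of -0.06 and none called. The log2 fold change was then -0.48 for Isg15, -0.27 for Bst2, -0.59 for Ifit1 and -0.60 for Rtp4. For Ifih1 it was -0.68, for Mx1 0.59, and for Ifitm3 0.71, against 0.25 for Ifitm3 in the main fit. B cell markers were as high in GF replicate 1 as in SPF replicate 1. Their part in the members' values was not tested.

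**Figure D3:**
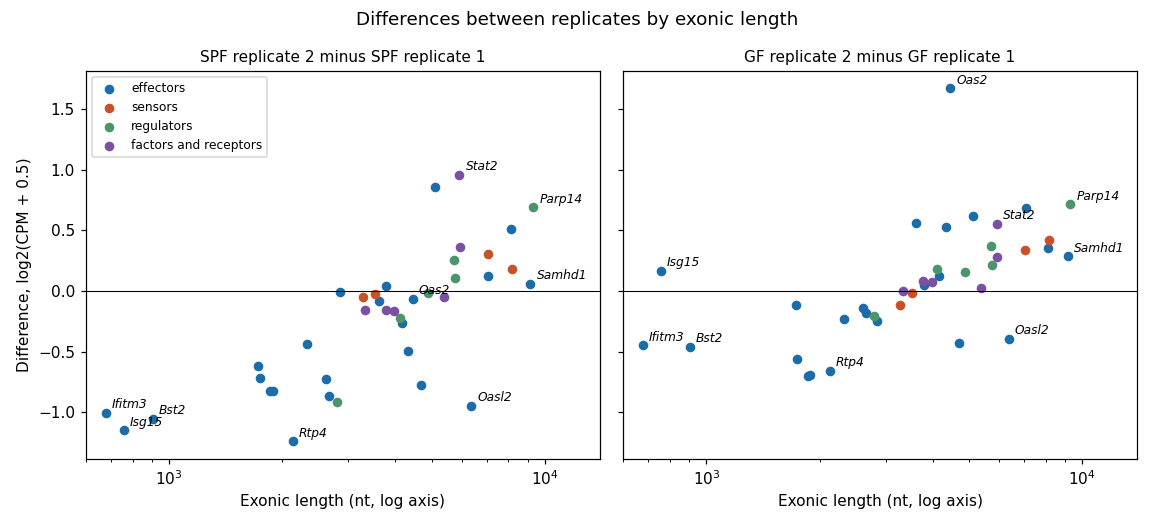
Each point is a tested gene, with its exonic length in nucleotides (log axis) against the difference between the replicates of a group on log2(CPM + 0.5), for SPF on the left and GF on the right. Short genes such as Bst2 and Ifitm3 lie below 0 in both panels and long genes such as Parp14 and Stat2 above. Oasl2, also long, lies below 0 in both panels, and Isg15 lies below 0 in SPF and above 0 in GF.

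The median log2 fold change of the 9 members with a response element match was -0.40, and 8 of the 9 had lower fitted values in GF, with Stat2 as the exception. The 21 tested members with a gene start in the table and no match had a median of -0.05, with 12 lower. The genes with a match were shorter, with a median exonic length of 2656 against 4689 nt, and SPF replicate 1 was the highest library for 7 of the 9. Whether the match or the length goes with the difference was not tested.

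Levels can be compared between genes only per length. On CPM per kilobase of exon, averaged over the 4 libraries, Epsti1 was highest at 280.0, followed by Samhd1 at 106, Bst2 at 89.96, Irf1 at 78.0 and Lgals3bp at 75.7. These 5 lay above 94.4% or more of tested genes, and 26 of the 40 members lay above the median of tested genes, 8.94. Neighbours in this order such as Irf1 and Lgals3bp differed by less than the spread of their libraries. Among tested members the lower end held Oasl2 at 0.40, Mx2 at 0.47, Oasl1 at 1.11 and Rsad2 at 1.74, and Isg15 stood near the middle at 15.0. Sensors ran from 2.01 for Ifih1 to 23.0 for Zbp1, and the receptor chains were at 42.8 for Ifnar1 and 21.8 for Ifnar2.

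**Figure D4:**
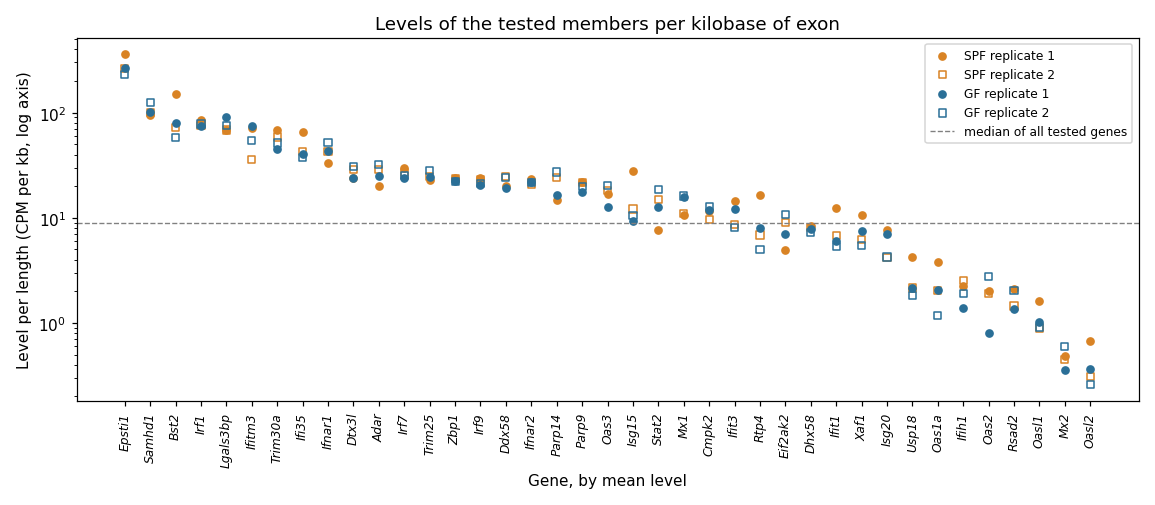
Level per kilobase of exon (CPM per kb, log axis) of each tested gene in the 4 libraries, ordered by the mean, with the median of all tested genes as a dashed line at 8.94. The order of the genes runs over more than the distance between libraries, from Epsti1 at 280.0 to Oasl2 at 0.40 on average, and SPF replicate 1 lies apart for Isg15, Rtp4 and Ifit1.

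The rest of the pathway was read from lists chosen by role. Of 19 interferon ligand genes, 16 had 0 reads in all 4 libraries, among them Ifnb1 and the listed interferon-α genes. Only Ifng, the type II interferon made by T cells, was tested, at 19.7 and 49.3 CPM in SPF and 26.1 and 68.8 CPM in GF, higher in the libraries numbered 2 in both groups. Reads from the near-identical interferon-α genes may be lost in counting, and Ifnz and Ifnk had at most 0.35 CPM.

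All 11 genes of receptor-proximal signalling were tested and 0 were called, with 5 higher and 6 lower in GF. The kinase genes Jak1 and Tyk2 measured 1042 and 1471 CPM and 90.7 and 174 CPM in SPF, and 1179 and 1563 CPM and 131 and 209 CPM in GF, higher in the libraries numbered 2. Their groups overlapped. The smallest p in the list belonged to Stat4, which carries interleukin-12 and interferon signals in T cells, at 363 and 330.0 CPM in SPF and 267 and 283 CPM in GF (log2 fold change -0.33, SE 0.20). Ptpn6 (SHP-1), a phosphatase that dampens signalling, measured 489 and 517 CPM in SPF and 347 and 446 CPM in GF (log2 fold change -0.34, SE 0.23). Neither gene's groups overlapped, and neither passed the test. Socs1, a feedback inhibitor of the kinases, measured 44.9 and 21.3 CPM in SPF and 24.9 and 24.4 CPM in GF, with SPF replicate 1 apart and a log2 fold change of -0.42 (SE 0.39). Stat3, which carries interleukin-6 and interleukin-10 signals, measured 218 and 275 CPM in SPF and 266 and 318 CPM in GF, with a log2 fold change of 0.25 (SE 0.24).

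Upstream of interferon production, 11 of 14 nucleic acid sensing genes were tested and 0 were called, with 5 higher and 6 lower. Irf3, the factor that switches on interferon genes, measured 179 and 159 CPM in SPF and 140.4 and 136 CPM in GF, and the adaptor gene Ticam1 (TRIF) 15.3 and 18.4 CPM in SPF and 23.0 and 20.4 CPM in GF, in opposite orders and with log2 fold changes of -0.29 (SE 0.20) and 0.37 (SE 0.25). Irf5, a related factor, measured 7.95 and 8.27 CPM in SPF and 6.69 and 7.01 CPM in GF (log2 fold change -0.24, SE 0.29), and the DNA sensor gene Aim2 15.5 and 20.5 CPM in SPF and 21.4 and 20.3 CPM in GF (0.22, SE 0.26). None of these differences passed the test. The toll-like receptor genes Tlr3, Tlr7 and Tlr9 had too few reads to be tested. Of 6 other IRF genes and IRF2-binding partners, 3 were higher and 3 lower with 0 called, and Irf4, a factor induced by T cell receptor signals, had the smallest p, at 22.5 and 26.1 CPM in SPF and 39.3 and 32 CPM in GF (log2 fold change 0.55, SE 0.24, adjusted p = 0.86 by edgeR). The corepressor genes Irf2bp1 and Irf2bp2 and the factor gene Irf8 had log2 fold changes of -0.26 (SE 0.26), -0.19 (SE 0.28) and 0.21 (SE 0.35), with overlapping groups.

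Of 71 other interferon-stimulated genes, 62 were tested, 28 with higher and 34 with lower fitted values in GF, a median log2 fold change of -0.09 and 0 called. GF lay below SPF without overlap in 20 (32.3%, against 16.4% of all tested genes) and above it in 9 (14.5%, against 16.8%). The TRIM genes Trim12c and Trim12a measured 194 and 157 CPM and 179.5 and 181 CPM in SPF, and 93.3 and 114 CPM and 123 and 126 CPM in GF, with log2 fold changes of -0.76 (SE 0.23) and -0.53 (SE 0.19). They are close copies on chromosome 7 near Trim30a, so their reads may be shared. Slfn2, a Schlafen gene that keeps T cells quiescent, measured 511 and 436 CPM in SPF and 336 and 305 CPM in GF, and Ifitm1, an entry inhibitor related to Ifitm3, measured 308 and 223 CPM in SPF and 394 and 461 CPM in GF. Their log2 fold changes were -0.56 (SE 0.22) and 0.69 (SE 0.26). All 4 genes had groups that did not overlap and an adjusted p of 0.86 in the edgeR test.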

How the data were processed

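The authors deposited 1 table of raw read counts per gene, and its 4 columns carry the names of the libraries in the labels. The submitters' processing notes list mm10 as the build, and CASAVA, TopHat, Picard, Subread with featureCounts, and edgeR as tools. Settings, versions and gene annotation were not given in the sources used here. Per the labels' protocols, 1 µg of total RNA went into a TruSeq kit, which does not mark strand.

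GF was tested against SPF with edgeR 4.0.16 on R 4.3.3 (TMM scaling, filterByExpr, quasi-likelihood F test without covariates), two-sided, with Benjamini-Hochberg adjustment over all 11271 tested genes and a threshold of 0.05. Standard errors are the size of the log2 fold change over the root of F. CPM uses the TMM-scaled library size. Differences between libraries use log2(CPM + 0.5). The fit was also run on counts simulated at a dispersion (spread beyond counting error) of 0.0171. The main fit had 0.076, so that run does not show what this fit could detect here. Positions and exonic lengths (merged exons) came from GENCODE M21 (GRCm38), which matched 99.3% of tested genes, and gene starts from RefSeq (GRCm38.p6). Genes are named by role, by groups that do not overlap, by an unadjusted p under 0.05, and, in each pathway list, by the 4 smallest p. Not every gene that this rule names is reported here. The members and lists were chosen with earlier results of these data known. Replicate numbers are shared by the groups without a label that ties them to a mouse, day or batch, so libraries were treated as unpaired. Alternatives were DESeq2 1.42.0, limma-voom (limma 3.58.1), the edgeR exact test, other scalings and filters, the replicate block, removal of a length trend, and each library left out. Figures were drawn with matplotlib 3.10.9.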

Additional observations from a re-analysis of the deposited data

How the results depend on the processing

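Of 39 tested members, 23 kept the direction of their log2 fold change under all 14 alternatives and 16 did not. With all 4 libraries 0 genes were called, against 8 higher and 1 lower by DESeq2 and by the edgeR exact test, none of them a member. The replicate block called 786 genes higher (6.97%) and 420 lower (3.73%), and with a length trend removed as well 633 (5.66%) and 333 (2.98%). Among members the block called 2 higher (Mx1, Stat2) and 4 lower (Isg15, Ifit1, Bst2, Rtp4), and the block with the length trend removed 2 higher (Mx1, Ifitm3) and 1 lower (Ifih1). Same-numbered libraries deviated together (r = 0.73 over all tested genes, 0.68 over members), which is a hint from the data and not from the design. With 1 library left out, 0 to 783 genes were called higher and 0 to 544 lower, with 0 to 1 and 0 to 4 members. The median over members ranged from -0.22 (without GF replicate 2) to -0.071. The cause of these shifts was not tested.

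Some signs turned. With the length trend removed, without and with the block, Isg20 had 0.19 and 0.18, Ifit3 0.063 and 0.060, Dtx3l -0.037 and -0.042, and Ifnar2 0.056 and 0.055. Parp14 had -0.0020 with both, and Mx2 -0.017 by limma-voom. With 1 library left out, values ranged from -0.48 to 0.43 for Isg20, -0.53 to 0.21 for Ifit3, -0.38 to 0.35 for Mx2, -1.29 to 0.51 for Oas2, -0.48 to 0.21 for Oas3, -0.74 to 0.11 for Oasl1 and -1.11 to 0.0068 for Oasl2. They ranged from -0.37 to 0.23 for Rsad2, -0.73 to 0.061 for Xaf1, -0.010 to 0.85 for Eif2ak2, -0.18 to 0.85 for Ifitm3, -0.23 to 0.11 for Ddx58, -0.23 to 0.55 for Parp14, -0.16 to 0.21 for Dtx3l, -0.15 to 0.020 for Irf1 and -0.10 to 0.067 for Ifnar2. Outside the members they were -0.41 to 1.26 for Ifng, -0.52 to 0.059 for Irf2bp1, -0.48 to 0.17 for Irf2bp2, -0.033 to 0.42 for Irf8, -0.87 to 0.22 for Socs1, -0.10 to 0.39 for Jak1 and -0.035 to 0.90 for Tyk2. The share of members with a response element was 25.8% in the last 150 bases and 19.4% for the stricter GAAANTGAAA. Depth limits the genes under about 10 CPM, such as Mx2 with 19 to 30 reads a library.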
